A study of Mus musculus with 12 samples.

Results

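Strong tetanization of ventral CA1 slices was compared with basal stimulation across all expressed genes, by setting every tetanized library against every basal library. All 12 libraries of the series entered, 9 tetanized and 3 Control, and each was assigned by its label alone. The mice were males of the C57BL/6J strain, wild type, aged 5 to 7 weeks, and their brains were cut into horizontal slices of 400 µm that rested for at least 3 h. The tetanized libraries fell into 3 groups of 3. STET slices received 3 trains of 100 pulses at 100 Hz to the Schaffer collaterals, a protocol used to bring about the late phase of long-term potentiation. In STET_S100 and STET_S200 the same tetanus was paired with pulses to the basolateral amygdala, at 100 Hz in STET_S100 and 200 Hz in STET_S200, although the STET_S200 description also gives, in brackets, pulses at 100 Hz. Control slices carried the same electrodes under basal stimulation alone. Tissue of 1 mm2 around the electrodes was taken from slices frozen 30 min after stimulation, and 6 slices were pooled in a library. Each mouse supplied 4 slices, 1 to each group, so mice are shared between groups, and which libraries hold the same mice is not stated.

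Tetanization of the Schaffer collaterals drives calcium into CA1 pyramidal cells through NMDA receptors and voltage-gated channels. Calcium-dependent kinases and the ERK pathway then activate CREB and SRF, transcription factors that bind cyclic AMP response elements (CRE) and CArG boxes. Immediate early genes such as Arc and Fos are transcribed first without new protein synthesis, and a later set of effector genes follows. Persistence of late potentiation is known to need new RNA and protein.

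Poly(A) RNA was measured as read counts per gene. Total counts ran from 36.8 to 50.3 M in the 9 tetanized libraries and from 36.3 to 52.8 M in the 3 Control libraries, and 19492 genes were tested. The CA1 markers Fibcd1 and Wfs1 had medians of 362 and 81.4 CPM (reads of a gene scaled to a common adjusted library total) in the tetanized libraries. In Control libraries 1 to 3 Fibcd1 had 290, 343 and 396 CPM and Wfs1 had 97.8, 81.6 and 76.0 CPM. RNA of peripheral tissue, defined as Fabp4 above 1 CPM, was present in 4 of 9 tetanized libraries and in 1 of 3 Control libraries. Later mentions of libraries with or without peripheral RNA use this rule alone. Control 1 and 2, without it by this rule, held another peripheral transcript, Umod, at 0.718 and 0.382 CPM. In tetanized libraries Umod had a median of 0 CPM and a maximum of 0.477 CPM, in STET 3. Ttr, the transthyretin of choroid plexus, ran from 1.73 to 2798 CPM in tetanized libraries and from 183 to 1167 CPM in Control libraries.

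Outside the immediate early genes, differences shared by the tetanized slices were small. With genes filtered on low counts, the genes beyond that set that a test called on all 12 libraries without covariates were Sstr3, a somatostatin receptor that was higher in tetanized slices, and Igfbp5, a secreted binder of insulin-like growth factors that was lower, both by DESeq2 alone. In the edgeR quasi-likelihood fit no gene was called higher and no gene was called lower at a Benjamini-Hochberg adjusted p under 0.05, and the smallest adjusted p was 0.810. At an unadjusted p under 0.05, 504 genes (2.59%) were higher and 562 (2.88%) were lower, together 5.47% of the genes tested. DESeq2 called 6 genes higher (0.0308%) and 1 lower (0.00513%), and limma-voom called none. Without the filter on low counts, where the prior degrees of freedom were estimated as infinite against 8.90 with it, edgeR called 22 genes higher and 30 lower, with Sstr3, Lpl, Gpr22, Igfbp5, Otof and Grm2 among them. Genes whose 9 tetanized libraries all lay above all 3 Control libraries numbered 107 (0.549%), and those whose 9 lay below numbered 86 (0.441%). With 9 libraries against 3, a random order of the libraries would fully separate a share of genes close to these percentages in each direction. Separation alone therefore does not mark a gene as changed, and this also applies to the separated genes described below.

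Most of the separated genes differed by little. Of the 107 above Control, 9 belonged to a list of 32 rapid immediate early genes, 98 did not, and 30 were predicted genes with no established name. None of the 86 below Control belonged to that list, though Nr4a2, placed here in a list of later activity-regulated genes, was among them. Of the 86, 20 were predicted genes. At a mean of at least 0 on the log2 CPM scale, 80 genes lay above and 67 below. Among these 80, 3 had a log2 fold change of at least 1, 12 had one between 0.5 and 1, and 45 had one under 0.25. Among the 67 lower ones none reached 1 in size, 3 lay between 0.5 and 1, and 51 lay under 0.25.

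**Figure D1:**
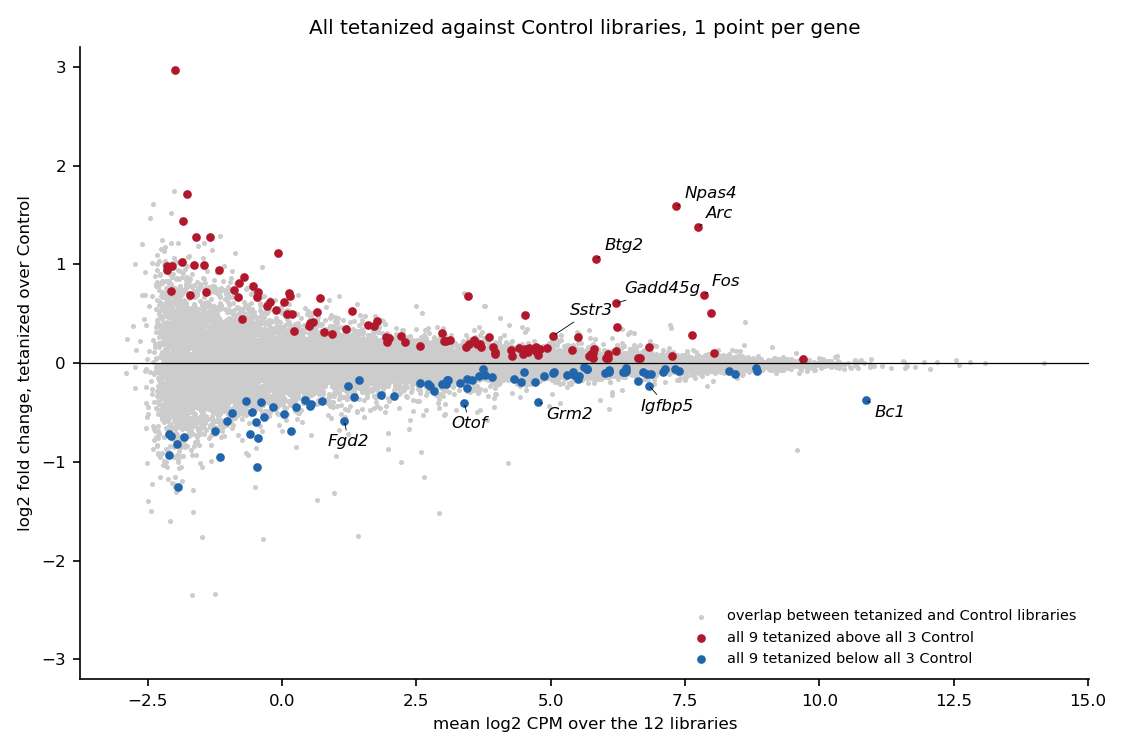
The log2 fold change of all tetanized over Control libraries (y axis) against the mean log2 CPM (x axis), with 1 point for each of the 19492 genes tested. Red points are the 107 genes whose 9 tetanized libraries all lay above the 3 Control libraries and blue points are the 86 that lay below, and 1 gene falls outside the range drawn. Npas4, Arc and Btg2 stand above 1, while Sstr3 at 0.28 and Igfbp5 at -0.23 lie near the edge of the cloud.

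Sstr3 (ENSMUSG00000044933) encodes a receptor for somatostatin that sits on the primary cilium of neurons. It had 30.7, 34.6 and 38.4 CPM as the lowest, median and highest of the 9 tetanized libraries, against 28.8, 30.3 and 26.0 CPM in Control libraries 1 to 3. Every tetanized library lay above every Control library, although STET 3 exceeded Control 2 by less than 1 CPM. The log2 fold change was 0.28 ± 0.05 (SE), with an adjusted p of 0.810 in edgeR and 0.00344 in DESeq2. By group it was 0.14 in STET, 0.31 in STET_S100 and 0.37 in STET_S200 against the same 3 Control libraries. Without Control 3 DESeq2 no longer called Sstr3, with an adjusted p of 0.368, whereas the call held with any other single library left out. With a term for the 5 libraries that held peripheral RNA, edgeR called Sstr3 as well, with an adjusted p of 0.0478.

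Igfbp5 (ENSMUSG00000026185) encodes an extracellular protein that binds insulin-like growth factors. It had 96.7, 111 and 120 CPM as the lowest, median and highest of the tetanized libraries, against 125, 127 and 130 CPM in Control libraries 1 to 3. All 9 tetanized libraries lay below all 3 Control libraries. The log2 fold change was -0.23 ± 0.05 (SE), with an adjusted p of 0.845 in edgeR and 0.0217 in DESeq2. By group it was -0.16 in STET, -0.21 in STET_S100 and -0.31 in STET_S200. DESeq2 lost the call without Control 2, Control 3 or STET 2, with adjusted p-values of 0.11, 0.379 and 0.0579. In the 7 libraries without peripheral RNA the log2 fold change was -0.16 for Igfbp5 and 0.25 for Sstr3.

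The other DESeq2 calls were immediate early genes. Gadd45g, a member of a family of inducible DNA damage and demethylation factors, rose by 0.60 ± 0.12 (DESeq2 log2 fold change and SE) with an adjusted p of 0.00344. Arc, which regulates AMPA receptor endocytosis at dendrites, rose by 1.38 ± 0.27 with an adjusted p of 0.00344. Npas4, a calcium-induced transcription factor of neurons, rose by 1.58 ± 0.32 with an adjusted p of 0.00344. Btg2 and Ier2 rose by 1.06 ± 0.24 and 0.48 ± 0.11, with DESeq2 adjusted p-values of 0.0380 and 0.0460. In all, 5 of the 7 DESeq2 calls were on the rapid list and 2, Sstr3 and Igfbp5, were not, and all 7 had groups that did not overlap. Without Control 3 DESeq2 called 0 genes in either direction. Of the 12 DESeq2 fits that each left out 1 library, Arc and Gadd45g were called in 11, Npas4 in 10, Btg2 in 8 and Ier2 in 4. Npas4 was also lost without Control 1, and Btg2 without Control 1, STET 2 or STET_S200 2. Ier2 was called only without STET 3, STET_S100 1, STET_S100 2 or STET_S200 2.

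Activity-regulated genes are often read through CRE sites near their start, so the 250 bases before the annotated start are shown for the 2 called genes outside the immediate early list and for 2 immediate early genes beside them. The sequences are those of the coding strand from RefSeq on GRCm38.p6, 5′ to 3′. Capitals mark the CRE core TGACG or its reverse complement CGTCA. Sstr3 lies at chr15:78544346-78544595 on the minus strand, Igfbp5 at chr1:72874866-72875115 on the minus strand, Gadd45g at chr13:51846425-51846674 on the plus strand and Npas4 at chr19:4989972-4990221 on the minus strand.
Sstr3 promoter: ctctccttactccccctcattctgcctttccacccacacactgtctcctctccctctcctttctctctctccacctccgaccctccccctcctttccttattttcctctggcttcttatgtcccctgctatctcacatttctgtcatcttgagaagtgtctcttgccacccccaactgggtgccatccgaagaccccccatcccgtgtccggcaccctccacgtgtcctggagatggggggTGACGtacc
Igfbp5 promoter: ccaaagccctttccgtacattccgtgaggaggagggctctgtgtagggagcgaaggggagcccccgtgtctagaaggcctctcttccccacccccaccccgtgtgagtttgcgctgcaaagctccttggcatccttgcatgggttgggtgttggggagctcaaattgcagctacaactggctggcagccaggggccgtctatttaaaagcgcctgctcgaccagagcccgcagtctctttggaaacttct
Gadd45g promoter: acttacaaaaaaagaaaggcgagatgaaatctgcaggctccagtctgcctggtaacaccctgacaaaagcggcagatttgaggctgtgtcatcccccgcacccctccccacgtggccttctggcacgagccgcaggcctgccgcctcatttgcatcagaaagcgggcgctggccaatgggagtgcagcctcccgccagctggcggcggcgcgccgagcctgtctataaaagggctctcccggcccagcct
Npas4 promoter: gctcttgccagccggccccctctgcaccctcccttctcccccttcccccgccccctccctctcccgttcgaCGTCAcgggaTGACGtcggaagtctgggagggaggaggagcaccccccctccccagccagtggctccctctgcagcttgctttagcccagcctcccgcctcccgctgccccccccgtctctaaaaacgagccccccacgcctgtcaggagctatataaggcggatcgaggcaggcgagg

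The Sstr3 promoter held 1 core, starting 9 bases before the start site, and the Npas4 promoter held 2 cores, starting 179 and 169 bases before it. The Igfbp5 and Gadd45g promoters held none. Neither the full CRE TGACGTCA nor a CArG box was found in any of the 4. Searched on both strands, with the core also counted inside the full CRE, the core was present in 17.861% of 27025 promoters of the same length, the full CRE in 1.624% and the CArG box in 1.399%. Of the 12 higher genes taken by the naming rule, 3 of them predicted genes not printed, 8 were matched to a promoter, and 3 of these held a core. Of the 12 lower genes, 1 of them predicted, 7 were matched, and 1 held a core. These matches are letters in a window and not measured binding sites.

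Besides Sstr3, the higher genes without overlap included an enzyme of lipid uptake, an orphan receptor and an Arf-related protein. None of these passed the test with all 12 libraries and genes filtered, though DESeq2 called Lpl without STET_S100 2 or STET_S200 1. Lpl, the lipoprotein lipase that releases fatty acids from lipoproteins, had 40.8, 47.9 and 54.5 CPM as the lowest, median and highest tetanized values, against 38.9, 40.6 and 38.8 CPM in Control libraries 1 to 3. Its log2 fold change was 0.26 ± 0.06 (SE, edgeR adjusted p 0.845, DESeq2 adjusted p 0.174), and the lowest tetanized library, STET 2, lay just above Control 2. By group the log2 fold change of Lpl was 0.18 in STET, 0.20 in STET_S100 and 0.40 in STET_S200, and without the 5 libraries with peripheral RNA its overall value was 0.17.

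Gpr22, an orphan receptor coupled to G proteins, had 112, 115 and 131 CPM in tetanized libraries, against 109, 104 and 101 CPM in Control libraries 1 to 3, and a log2 fold change of 0.16 ± 0.04 (SE). Agfg2, related to GTPase-activating proteins of Arf, had 53.6, 57.8 and 61.0 CPM in tetanized libraries, against 51.8, 52.9 and 50.4 CPM in Control, and a log2 fold change of 0.14 ± 0.04 (SE). Zfp984, a zinc finger gene, and Col6a4, a chain of collagen VI, were expressed at a few CPM. Zfp984 had a median of 3.53 CPM in tetanized libraries and at most 2.78 CPM in Control, and Col6a4 had a median of 1.65 CPM in tetanized libraries and at most 1.29 CPM in Control.

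Igfbp5 apart, none of the separated lower genes passed the edgeR or the DESeq2 test with all 12 libraries and genes filtered. With 1 library left out, DESeq2 called Grm2 without STET 1, STET_S100 1, STET_S100 2, STET_S200 1 or STET_S200 3. It called Otof without STET_S100 2, STET_S200 2 or STET_S200 3, and Bc1, described below, without STET_S200 1. Otof, which encodes the calcium sensor otoferlin known from exocytosis in inner hair cells, had 7.57, 9.78 and 11.6 CPM in tetanized libraries, against 13.1, 12.6 and 12.7 CPM in Control. The 3 Control values lay within 1 CPM of each other and above every tetanized value. Its log2 fold change was -0.41 ± 0.09 (SE, edgeR adjusted p 0.845, DESeq2 adjusted p 0.0721), with -0.35 in STET, -0.37 in STET_S100 and -0.50 in STET_S200. Grm2, the metabotropic glutamate receptor that inhibits transmitter release, had 19.4, 25.6 and 29.5 CPM in tetanized libraries, against 34.8, 33.4 and 30.8 CPM in Control. Its log2 fold change was -0.39 ± 0.10 (SE, edgeR adjusted p 0.845, DESeq2 adjusted p 0.0721), and the antisense gene Gm28111 overlaps 9.604% of its exonic bases, so their reads cannot be told apart if strand was not used.

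Syn3, a synapsin that coats synaptic vesicles, had 9.28, 10.5 and 11.1 CPM in tetanized libraries, against 12.6, 13.2 and 11.2 CPM in Control. The highest tetanized value, STET_S200 3, lay just below Control 3. The log2 fold change was -0.26 ± 0.07 (SE), almost equal in the 3 groups at -0.27 in STET, -0.25 in STET_S100 and -0.26 in STET_S200. Timp3, on the opposite strand, overlaps 14.110% of the Syn3 exonic bases. Plppr3, a phosphatase-related membrane protein of axons, and Magi3, a scaffold protein of cell junctions, had log2 fold changes of -0.16 ± 0.04 and -0.13 ± 0.04 (SE). Sept5, a septin of nerve terminals, had one of -0.19 ± 0.05, but its annotated exons share 48.582% of their bases with Gp1bb and 56.347% with Gm49601, both on the same strand, so its value is uncertain.

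Fgd2, an exchange factor for Cdc42, had 1.27, 2.05 and 2.40 CPM in tetanized libraries, against 3.06, 2.54 and 3.14 CPM in Control, and a log2 fold change of -0.59 ± 0.16 (SE). Slc16a11, of the monocarboxylate transporter family, and Rad51d, of homologous recombination, had log2 fold changes of -0.28 ± 0.08 and -0.21 ± 0.06 (SE). Strbp, an RNA-binding protein, had one of -0.11 ± 0.03. Bc1, a noncoding RNA of dendrites that represses translation, was singled out after its values were seen. Its 9 tetanized libraries lay between 1329 and 2098 CPM, below the Control values of 2136, 2404 and 2175 CPM, with a log2 fold change of -0.38 ± 0.12 (SE, edgeR adjusted p 0.845). The edgeR test called Bc1 lower without the group STET_S200 and in the 7 libraries without peripheral RNA.

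**Figure D2:**
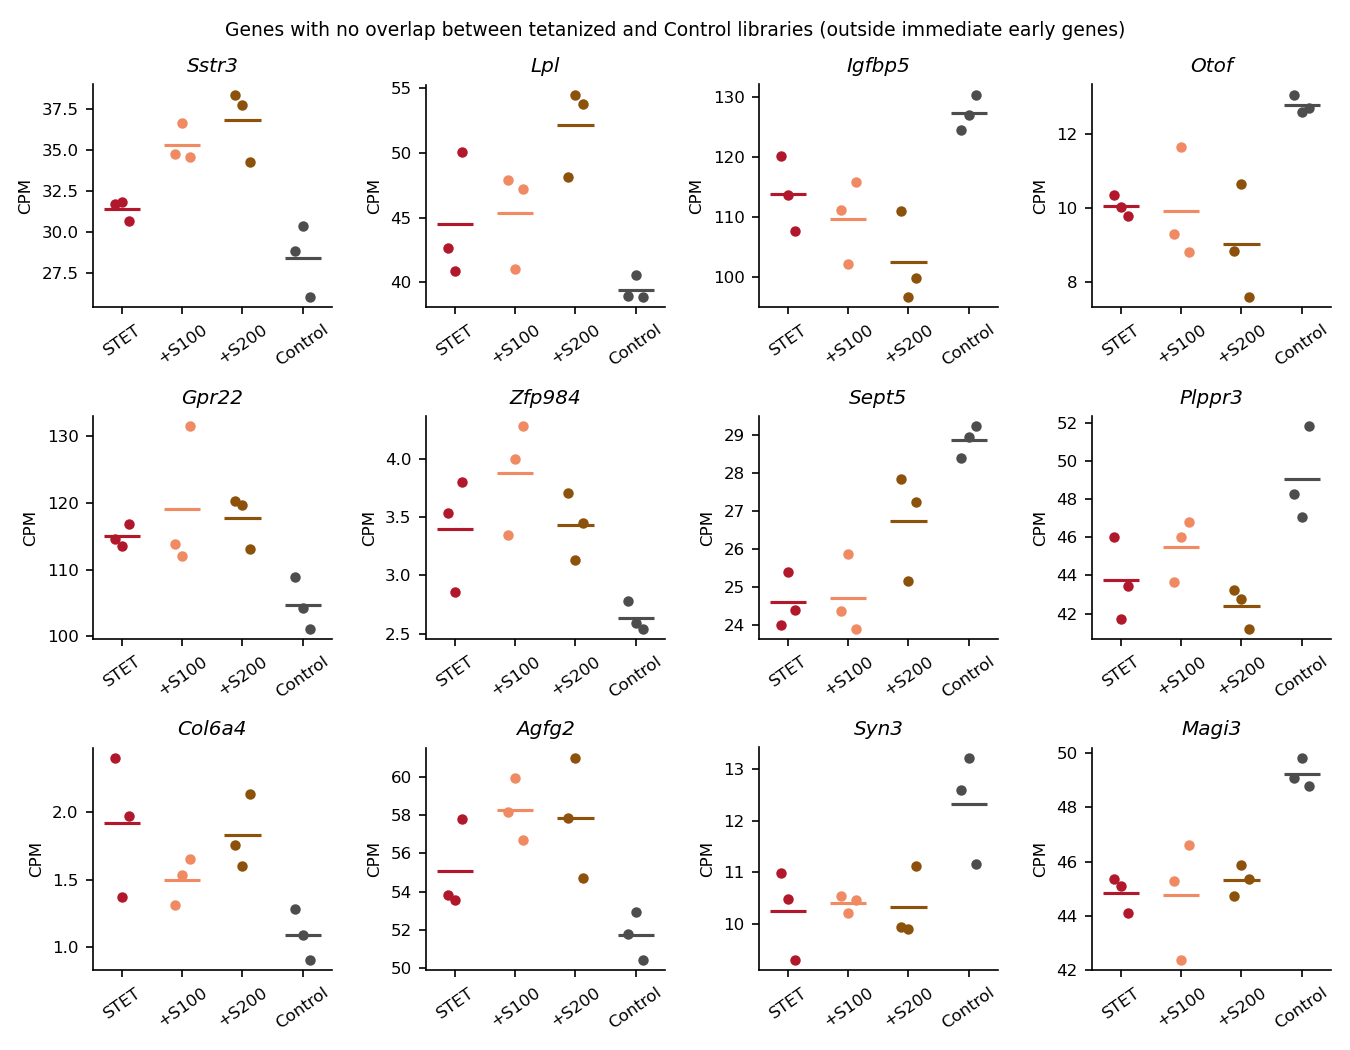
CPM (y axis, not starting at 0) of 12 genes in each library, grouped as STET, STET_S100 (+S100), STET_S200 (+S200) and Control on the x axis, with a line at each group mean. The 6 genes on the left lay above Control in all 9 tetanized libraries and the 6 on the right lay below, for example Sstr3 from 30.7 CPM upward against at most 30.3 CPM in Control.

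Among the immediate early genes, Arc had 170, 241 and 399 CPM as the lowest, median and highest of the tetanized libraries, against 94.1, 115 and 80.5 CPM in Control. Npas4 had 113, 178 and 326 CPM in tetanized libraries, against 54.7, 75.3 and 61.4 CPM in Control. Neither overlapped between tetanized and Control libraries. Gadd45g had 67.6, 83.5 and 95.0 CPM in tetanized libraries, against 56.9, 57.3 and 45.2 CPM in Control, and Btg2, an antiproliferative transcription cofactor, had 49.5, 62.1 and 103 CPM in tetanized libraries, against 30.2, 36.4 and 27.7 CPM in Control. In the edgeR fit Fos, Junb, Egr1 and Egr2, transcription factors of the first wave, had log2 fold changes of 0.69 ± 0.20, 0.51 ± 0.15, 0.42 ± 0.17 and 0.50 ± 0.21 (SE). Nr4a1, an orphan nuclear receptor, and Dusp1, a phosphatase of MAP kinases, had 0.35 ± 0.21 and 0.36 ± 0.12. Egr1, Egr2 and Nr4a1 overlapped Control, with STET_S100 1 lowest for Egr2 at 14.8 CPM, whereas Fos, Junb and Dusp1 did not.

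Over the 32 rapid immediate early genes the median log2 fold change was 0.15, against -4.06e-05 over all genes tested. Of the 32, 25 were positive (50% of all genes were), 14 had an unadjusted p under 0.05 in the higher direction (2.59% of all genes did) and none in the lower direction. The median was 0.25 in STET, 0.19 in STET_S100 and 0.11 in STET_S200. In the joint test among the 3 tetanized groups none of the 32 had an unadjusted p under 0.05. As only 3.93% of all genes had one, few of 32 would be expected.

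The 3 tetanized groups were tested for differences among themselves, which does not use Control. With 3 libraries in each group, a lack of calls cannot show that a response was common to them. The same edgeR fit called no gene against Control either, Arc included. The edgeR joint test called 0 genes, with a smallest adjusted p of 0.999 and 766 genes (3.93%) at an unadjusted p under 0.05. DESeq2 called 4 (0.0205%), Rps29, Rpl38, Neurod2 and Uchl1, and limma-voom called none. With 1 library left out, DESeq2 called 1 to 180 genes among the groups. It called 1 without STET_S200 2 and 2 without Control 2 or STET 3, so these 4 calls also depended on single libraries. Of the 107 separated higher genes 7 had a joint unadjusted p under 0.05, and of the 86 lower ones 2 had one. The comparisons of the single groups with Control share the 3 Control libraries, so their values are given side by side and not as independent results.

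Sstr3 was among the genes with a small joint p. Its values were 30.7 to 31.8 CPM in STET, 34.6 to 36.6 CPM in STET_S100 and 34.3 to 38.4 CPM in STET_S200. STET lay below the other two tetanized groups without overlap, and the joint unadjusted p was 0.00403 in edgeR (DESeq2 adjusted p 0.577). Igfbp5 had a joint unadjusted p of 0.0451 and Lpl one of 0.0181, with STET_S200 farthest from Control in both. Arc, Npas4, Btg2 and Gadd45g had joint unadjusted p-values of 0.755, 0.597, 0.627 and 0.534, and in all 4 STET_S200 was the group nearest to Control.

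Rps29 and Rpl38, proteins of the small and large ribosomal subunit, differed among the tetanized groups in DESeq2 (adjusted p 0.000707 and 0.0211). Rps29 averaged 227 ± 14.4 CPM in STET, 178 ± 9.14 CPM in STET_S100 and 189 ± 3.31 CPM in STET_S200, against 209 ± 18.7 CPM in Control (SD, n = 3 each). The mean of Rps29 was above Control in STET and below it in both amygdala-stimulated groups, and its pooled log2 fold change was -0.08 ± 0.05 (SE). Rpl38 averaged 134 ± 6.82 CPM in STET, 112 ± 5.57 CPM in STET_S100 and 113 ± 4.72 CPM in STET_S200, against 119 ± 6.85 CPM in Control. Uchl1, a neuronal ubiquitin hydrolase, averaged 655 ± 37.5 CPM in STET, 540 ± 26.5 CPM in STET_S100 and 514 ± 27.5 CPM in STET_S200, against 586 ± 73.6 CPM in Control. Its DESeq2 adjusted p was 0.0211, and the antisense gene Uchl1os overlaps 18.076% of its exonic bases.

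Over the 79 cytosolic ribosomal proteins, 27 had a joint unadjusted p under 0.05, against 3.93% of all genes. The median log2 fold change over Control was 0.06 in STET, -0.02 in STET_S100 and -0.02 in STET_S200, and 0.01 for the groups together, which turned to -0.0044 without STET_S200 1 and was also negative without STET_S100 1. Nuclear-encoded subunits of oxidative phosphorylation gave 15 of 75 at that p, with medians of 0.06 in STET, 0.00 in STET_S100 and 0.01 in STET_S200. Neurod2, a transcription factor of excitatory neurons, differed the other way. It averaged 129 ± 5.87 CPM in STET, 142 ± 2.14 CPM in STET_S100 and 148 ± 3.45 CPM in STET_S200, against 127 ± 1.03 CPM in Control (SD, n = 3 each). STET was at the Control level and both amygdala-stimulated groups lay above it, with a joint DESeq2 adjusted p of 0.0211.

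**Figure D3:**
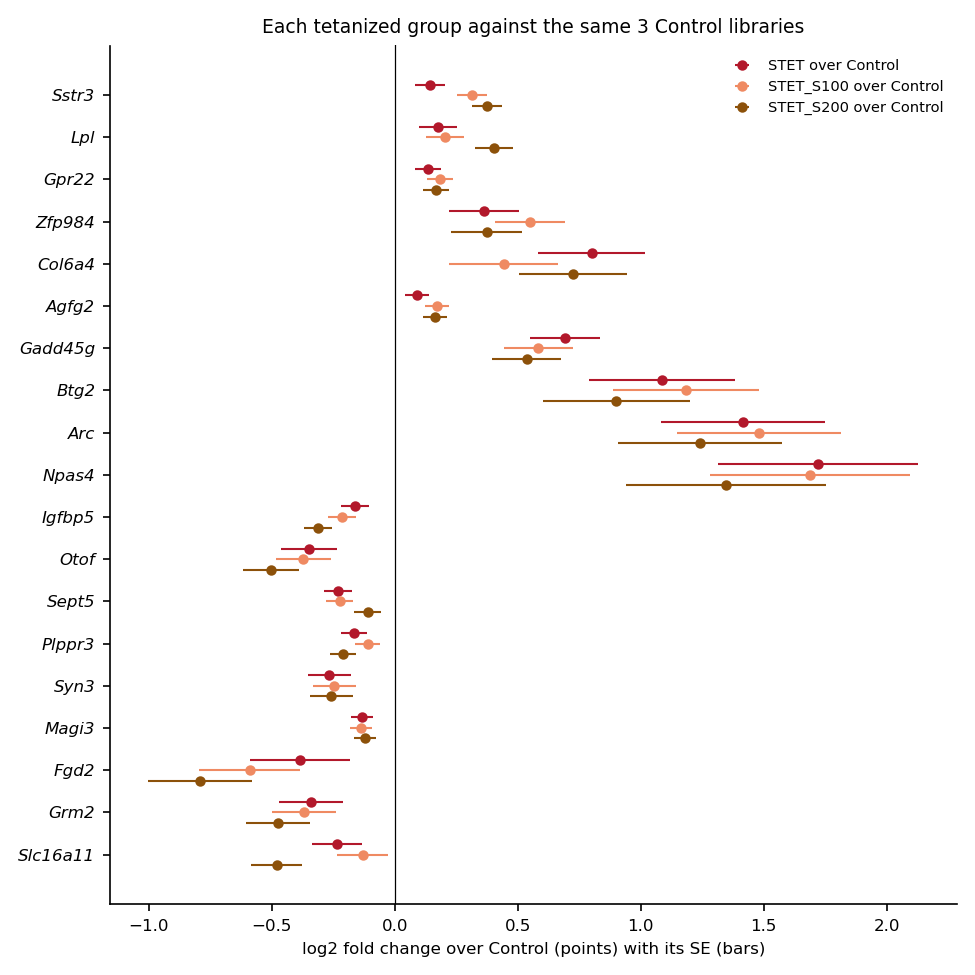
The log2 fold change of each tetanized group over the same 3 Control libraries (x axis) for 19 genes (y axis), in the order STET, STET_S100 and STET_S200, with bars of 1 SE from the edgeR fit. The points of Sstr3 are at 0.14 in STET and 0.37 in STET_S200.

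The direction of many list medians rested on 1 library. Of 45 lists, 27 had a median of the opposite sign in at least 1 of the 12 edgeR fits that each left out a library, and 18 did not, among them the rapid immediate early genes. Of 27 genes of the later activity-regulated wave 17 were positive, and 3 had an unadjusted p under 0.05 in each direction, against 2.59% of all genes in the higher and 2.88% in the lower direction. Their median was 0.02 with all libraries, -0.03 without Control 3 and 0.09 without Control 1. The highest among them were Rgs2, a regulator of G protein signalling, and Nptx2, a pentraxin that clusters AMPA receptors, with log2 fold changes of 0.32 ± 0.10 and 0.30 ± 0.12 (SE). Nr4a2, a nuclear receptor of memory-related transcription, had 81.4, 96.1 and 102 CPM in tetanized libraries, against 108, 103 and 112 CPM in Control. It lay below Control in all 9, with a log2 fold change of -0.18 ± 0.06. Pcsk1, a protease that processes prohormones, had one of -0.20 ± 0.06.

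MAP kinase phosphatases and Sprouty feedback genes were positive in 15 of 19 genes (50% of all genes were), with a median of 0.04. In all 3 tetanized groups 8 of the 19 were positive. Spry2 and Spry1, Sprouty proteins that dampen receptor tyrosine kinases, had log2 fold changes of 0.30 ± 0.13 and 0.19 ± 0.07 (SE), Dusp5, a nuclear ERK phosphatase, had 0.22 ± 0.08, and Spred1 had -0.13 ± 0.04. Among 30 regulators of RNA decay 16 were positive, and the smallest p belonged to Zfp36l1, which binds AU-rich elements and destabilises their RNAs. Zfp36l1 had 44.9, 56.8 and 61.5 CPM in tetanized libraries, against 46.2, 46.2 and 39.2 CPM in Control. Its log2 fold change was 0.34 ± 0.09 (SE, edgeR adjusted p 0.845), and without STET_S200 3 the edgeR test called it higher. DESeq2 called it without Control 1, Control 2, STET 1, STET_S100 1, STET_S200 1 or STET_S200 3. Tob1, an adaptor of the CCR4-NOT deadenylase, had 0.19 ± 0.06.

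Each of the synaptic and ion channel lists held more negative than positive genes, and no member of them passed the edgeR test. Their medians were all negative in STET and in STET_S100. In STET_S200 the median was 0.01 for the release machinery, 0.04 for AMPA receptors and 0.02 for GABA receptors. It was 0.01 for postsynaptic scaffolds, 0.01 for potassium channels and 0.02 for sodium, calcium and HCN channels. For NMDA, kainate and metabotropic glutamate receptors it was -0.03. Among 38 genes of the release machinery 25 were negative (50% of all genes were) and the median was -0.02. Of the 38, 5 had an unadjusted p under 0.05 in the lower direction against 2.88% of all genes. Besides Syn3 these were Pclo, a giant scaffold of the active zone, with a log2 fold change of -0.15 ± 0.04 (SE), Rph3a and Rimbp2, partners of Rab3 and of calcium channels, with -0.14 ± 0.05 each, and Syt7, a slow calcium sensor, with -0.12 ± 0.05. Pclo had 323, 342 and 376 CPM in tetanized libraries, against 386, 385 and 376 CPM in Control, so that only its highest tetanized value reached the lowest Control value.

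Of 20 NMDA, kainate and metabotropic glutamate receptors 14 were negative (50% of all genes were), with a median of -0.02. In the lower direction 4 had an unadjusted p under 0.05 (2.88% of all genes did). These were Grm2, Grin2c, Grin2b and Grik1, and the NMDA subunit Grin2b had a log2 fold change of -0.08 ± 0.03 (SE). AMPA receptor subunits and their auxiliary proteins split 9 positive to 11 negative. Shisa9, an auxiliary protein that slows recovery from desensitisation, had 57.6, 59.0 and 64.9 CPM in tetanized libraries, against 70.4, 65.8 and 63.9 CPM in Control, and a log2 fold change of -0.16 ± 0.04. Postsynaptic scaffolds and GABA receptors had 0 genes at that p in either direction, out of 21 and 17, against 5.47% of all genes.

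Potassium channels gave 5 of 54 at an unadjusted p under 0.05 in the lower direction and none in the higher direction, against 2.88% and 2.59% of all genes. The small-conductance channel Kcnn3 lay below Control in all 9 tetanized libraries, with a log2 fold change of -0.12 ± 0.04 (SE). Neuropeptides and their receptors gave 6 of 39 in the lower direction (2.88% of all genes) and, in the higher direction (2.59%), Sstr3 alone. Cckbr, a cholecystokinin receptor, had 7.42, 8.45 and 9.98 CPM in tetanized libraries, against 11.8, 9.30 and 11.1 CPM in Control. Its log2 fold change was -0.31 ± 0.10 and was nearly equal in the 3 groups, at -0.30 in STET, -0.32 in STET_S100 and -0.31 in STET_S200. Nmbr and Oprm1, receptors for neuromedin B and for opioids, had log2 fold changes of -0.47 ± 0.14 and -0.37 ± 0.12 at a few CPM. Adrb1, the beta-1 adrenergic receptor, had 0.23 ± 0.07, with 30.3, 36.5 and 40.2 CPM in tetanized libraries, against 30.1, 30.1 and 31.3 CPM in Control.

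Clock and glucocorticoid-regulated genes were compared as further lists. Of 21 circadian genes 4 had an unadjusted p under 0.05 in the lower direction and none in the higher direction, against 2.88% and 2.59% of all genes. They were the transcription factors Hlf and Tef and the repressors Per2 and Cry2, with log2 fold changes of -0.17 ± 0.06, -0.08 ± 0.03, -0.14 ± 0.05 and -0.09 ± 0.04 (SE). Tef lay below Control in all 9 tetanized libraries. Of 18 glucocorticoid response genes 3 had that p in the higher direction (2.59% of all genes) and 5 in the lower direction (2.88%), with Mt2, a metallothionein, at 0.18 ± 0.08 and Tsc22d3 and Hif3a at -0.29 ± 0.12 and -0.46 ± 0.15.

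Proteasome subunits were positive in 30 of 35 genes and oxidative phosphorylation subunits in 54 of 75, against 50% of all genes, but their medians were 0.03 and 0.02. Without Control 1 the median of the oxidative phosphorylation subunits was -0.0096. No proteasome subunit had an unadjusted p under 0.05, and Psmb7 was the 1 that lay above Control in all 9 libraries, with a log2 fold change of 0.06 ± 0.03 (SE). Kinases of late potentiation were negative in 24 of 33 genes and chromatin regulators in 27 of 37 (50% of all genes were), with medians of -0.02. Neither list had a gene at an unadjusted p under 0.05 (5.47% of all genes did). Inflammatory and interferon-stimulated genes had medians of 0.08 and 0.06, again with 0 of 35 and 0 of 24 genes at that p in either direction.

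**Figure D4:**
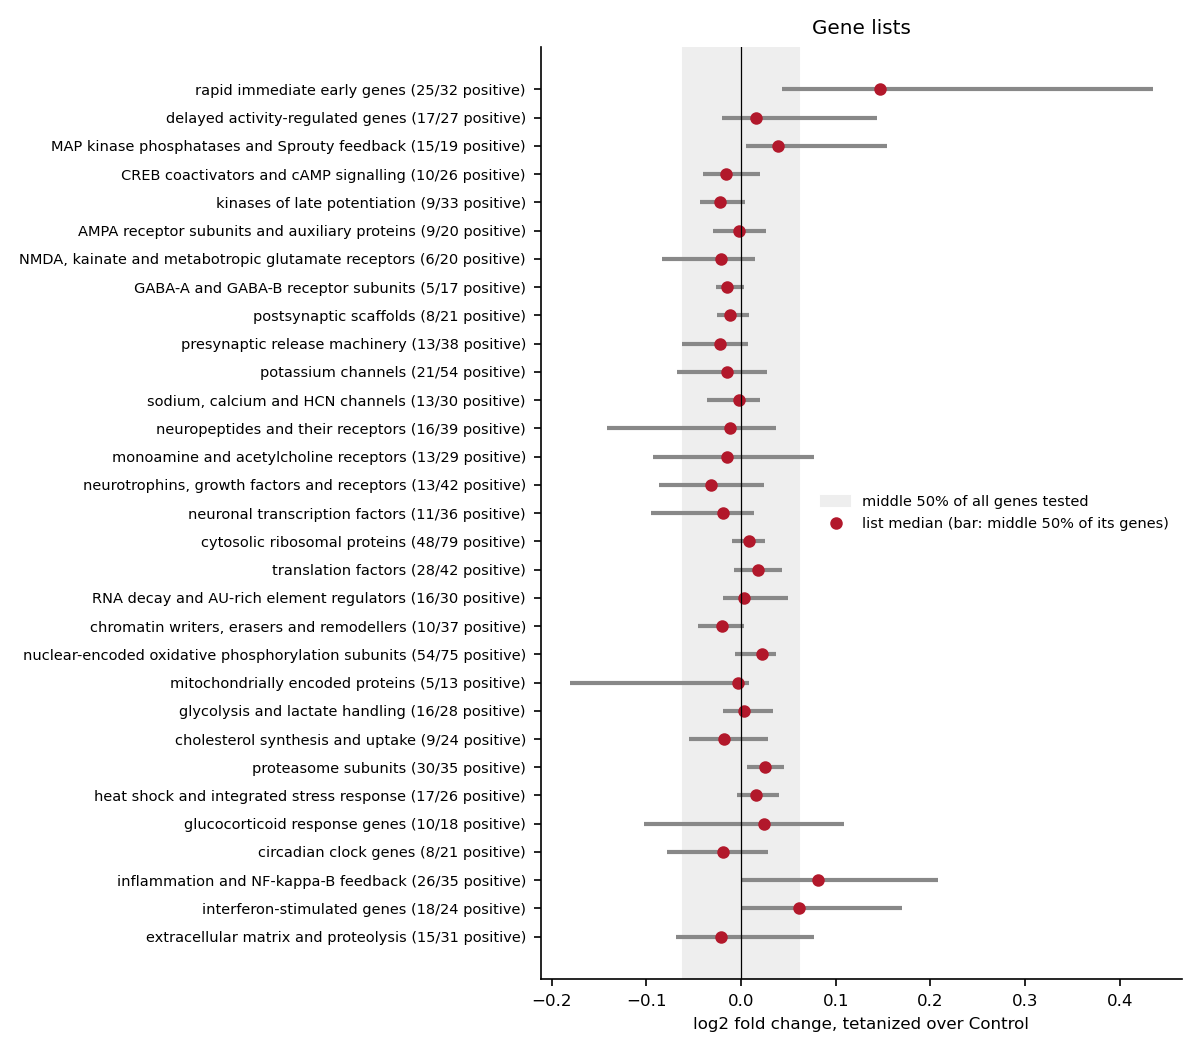
The median log2 fold change of tetanized over Control libraries (x axis) for 31 gene lists (y axis, with the number of positive genes), where bars span the interquartile range of a list and the grey band that of all genes tested. The rapid immediate early genes stand at 0.15 with a wide bar, and the release machinery stands at -0.02.

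Markers of glia and of tissue next to CA1 were also compared. In bulk tissue, fewer cells of a type and less RNA per cell cannot be told apart. Of 19 microglia markers 18 were negative and 4 had an unadjusted p under 0.05 in the lower direction, against 50% negative and 2.88% lower among all genes. Their median was -0.10, and -0.06 without Control 2. Their summed level was 371 to 453 CPM in tetanized libraries, with a median of 415 CPM, against 429 to 460 CPM in Control libraries, so the groups overlapped. The medians by group were -0.02 in STET, -0.11 in STET_S100 and -0.18 in STET_S200. Tmem119 and P2ry12, defining membrane proteins of microglia, had log2 fold changes of -0.45 ± 0.16 and -0.19 ± 0.09 (SE), and Csf1r, the receptor on which microglia depend, had -0.16 ± 0.06. No microglia marker passed the edgeR test.

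Astrocyte markers were negative in 14 of 16 genes (50% of all genes were), with a median of -0.04 that turned to 0.02 without Control 2. Their summed levels were 9012 to 10635 CPM in tetanized libraries, against 9286 to 11066 CPM in Control. Gli3 and Fgfr3, of Hedgehog and fibroblast growth factor signalling, had the smallest p, with log2 fold changes of -0.22 ± 0.06 and -0.12 ± 0.04 (SE). Oligodendrocyte precursor markers were negative in 10 of 12 genes, with a median of -0.06, and -0.0049 without Control 2. Markers of neocortical and amygdala neurons had a median of -0.10 over 11 genes, 8 negative and 3 positive, and -0.06 without Control 1. They summed to 639 to 744 CPM in tetanized libraries, against 669 to 772 CPM in Control. Etv1, also a CA1 marker here, and Foxp1 averaged 255 and 153 CPM in tetanized libraries, and both were positive. Tshz2, Lypd1 and Tbr1 had log2 fold changes of -0.46 ± 0.26, -0.28 ± 0.13 and -0.17 ± 0.18 (SE). Markers of CA1 pyramidal cells had a median of 0.02, which was negative without Control 1, Control 2 or STET_S100 3 and lowest at -0.01 without Control 2, and their sums of 1805 to 2152 CPM in tetanized libraries enclosed the 1827 to 2094 CPM of Control.

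Over 15 choroid plexus and ependymal markers the median was 0.47 in STET, 1.21 in STET_S100 and -2.30 in STET_S200. Their summed level was 103 to 4266 CPM in tetanized libraries, against 406 to 1987 CPM in Control. The STET_S100 libraries were split. Ttr had 1841 and 2798 CPM in STET_S100 1 and 2 but 12.2 CPM in STET_S100 3, below every Control library. Meningeal fibroblast markers had medians of -0.09 in STET, 0.03 in STET_S100 and -0.39 in STET_S200, and summed to 336 to 450 CPM in tetanized libraries, against 349 to 416 CPM in Control. Most of that sum came from Dcn, also a CA1 marker here, and Ptgds, at means of 184 and 166 CPM in tetanized libraries. Of 13 transcripts of peripheral tissue 11 were tested and 7 of these were negative. The 13 summed to a median of 2.13 CPM and at most 21.7 CPM in tetanized libraries, against a median of 2.80 CPM and at most 23.7 CPM in Control. STET_S200, the group farthest from Control for Sstr3, Igfbp5, Lpl, Otof and Grm2, also had the lowest choroid and meningeal levels. With the choroid score as a covariate the log2 fold changes were 0.28 for Sstr3, -0.24 for Igfbp5, 0.25 for Lpl, -0.40 for Otof and -0.36 for Grm2. Low choroid level and group go together in STET_S200, so this fit cannot tell them apart there, and no meningeal score was fitted. The part of choroid plexus, meninges, microglia, astrocytes and neighbouring neurons in these differences was not tested.

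**Figure D5:**
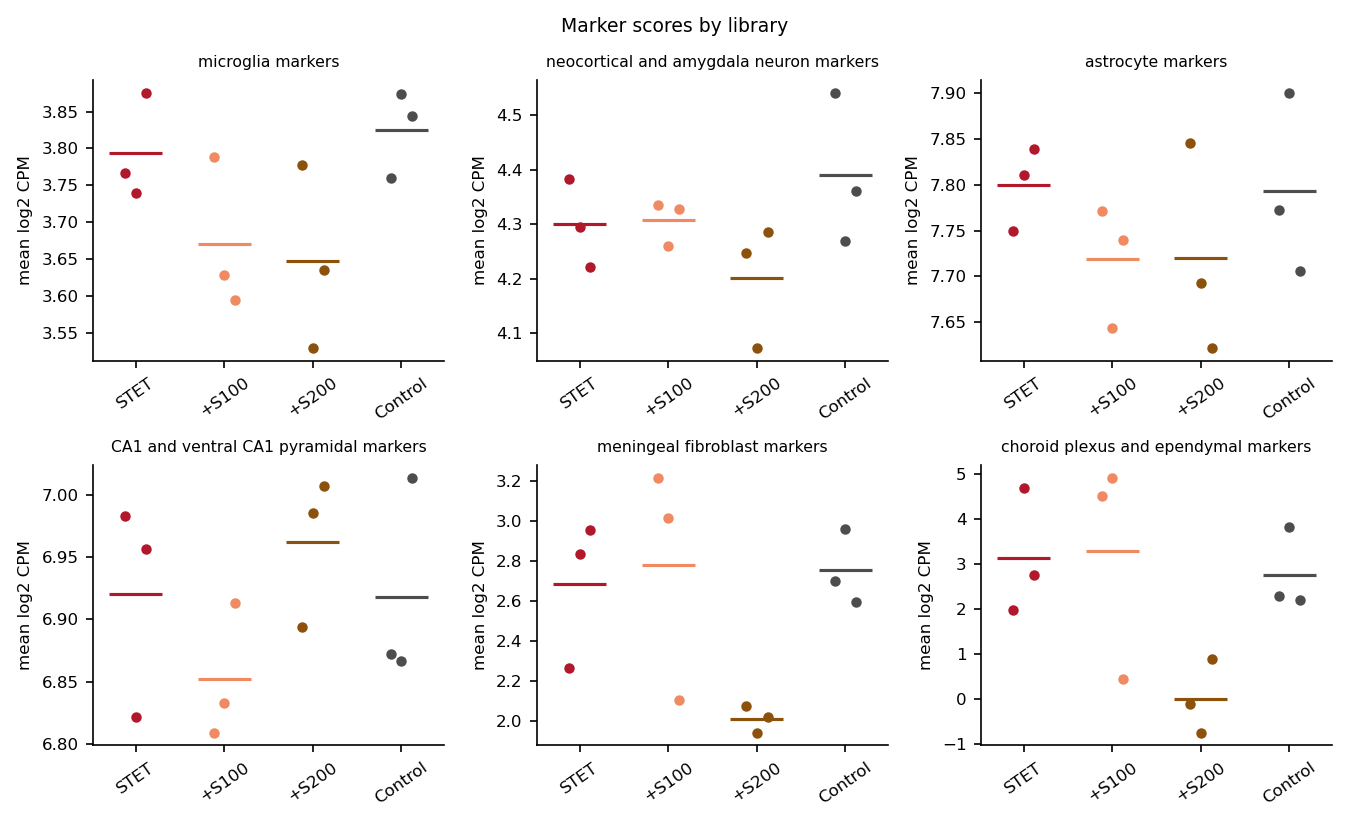
The mean log2 CPM (y axis, not starting at 0) of 6 lists of cell type markers in each library, by STET, STET_S100 (+S100), STET_S200 (+S200) and Control, with a line at each group mean. Microglia scores in STET_S100 and STET_S200 average below those of Control but overlap them, and choroid plexus scores of all 3 STET_S200 libraries lie below those of Control.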

How the data were processed

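Directional poly(A) libraries were sequenced per the labels' protocols, and the deposited values are whole-number read counts per Ensembl gene ID, unscaled by the authors. Per the submitters' processing notes, Trimmomatic 0.39 and STAR 2.7.1a were used with HTSeq 0.11.2, and limma ran in R 4.0.2. The sources used here do not state a genome build, an annotation or whether counting used strand. Of 55471 IDs, 55144 had a symbol and 35834 had at least 1 read. All count columns were mapped to samples by their names.

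Counts were scaled by TMM, filtered with filterByExpr by group (minimum count 10, minimum total 15, leaving 19492 genes) and tested in R 4.3.3 by the quasi-likelihood test of edgeR 4.0.16 (robust dispersion). A single model held the 12 libraries, with a coefficient for each group. The contrast was the mean of the 3 tetanized groups minus Control, and a joint test compared the 3 tetanized groups with each other. The Benjamini-Hochberg adjustment ran over all genes tested. DESeq2 1.42.0 and limma-voom (limma 3.58.1) were alternatives, with other scalings, filters, covariates, a replicate block and left-out libraries and groups. The tests were checked on simulated counts. The biological coefficient of variation was 8.25%, and chi-square per degree of freedom between same-group libraries was 5.16 to 21.4, so none was counted as a duplicate. Reads are not independent molecules, and p-values measure only the spread between pooled libraries whose groups share mice.

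Named genes are those past the edgeR threshold or, as none passed, up to 12 per direction by smallest p among genes of mean log2 CPM of at least 0 whose 9 tetanized libraries lay on one side of Control, with 10 immediate early genes, up to 5 members of each list by smallest p, and the 5 genes with the smallest joint p. Predicted genes outside the first 3 of a direction were only counted, and predicted genes within them are not printed. Genes called by DESeq2, Bc1 and list members beyond the first 5 were named after their values were seen. The comparison and the 45 gene lists were chosen with earlier results of these data known. Promoters and exon overlaps came from annotation tables of GRCm38.p6, by symbol and ID.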

Additional observations from a re-analysis of the deposited data

Results flagged for a closer look

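Among 34 genes examined over the 9 tetanized libraries, 4 had a library that stood apart from the others by Dixon's criterion for 9 values, where chance gives about 1 in 20. Gpr22 had 131 CPM in STET_S100 3, against 120 CPM in the next highest library. Junb had 371 CPM in STET_S100 2, against 285 CPM in the next. Btg2 had 103 CPM in STET_S100 2, against 74.4 CPM in the next. Egr2 had 14.8 CPM in STET_S100 1, against 24.4 CPM in the next lowest, below all 3 Control libraries. All 4 values came from STET_S100 libraries. Without STET_S100 3 the log2 fold change of Gpr22 was 0.14, and without STET_S100 2 those of Junb and Btg2 were 0.43 and 0.94.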

How the results depend on the processing

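The edgeR counts of 0 genes higher, 0 lower and 0 that differ among the tetanized groups were the same with RLE or upper quartile scaling, a mean count of at least 10, a mean log2 CPM of at least 0, limma-voom with and without quality weights, no robust dispersion, a choroid score as covariate and a threshold of 0.1. A 2-group fit gave 0 higher and 0 lower and has no test among the groups. Without the filter edgeR called 22 higher, 30 lower and 115 among the groups, at an infinite prior degree of freedom against 8.90, and all 52 pooled calls were genes that pass the filter. DESeq2 called 6 higher, 1 lower and 4 among the groups. A term for the libraries with peripheral RNA gave 3 higher (Gadd45g, Sstr3 and Jun), 1 lower and 1 among the groups. The 7 libraries without such RNA by the Fabp4 rule leave 1 library in STET_S200. Genes called lower in those 7 included Umod, itself a peripheral transcript, and Bc1. Leaving out 1 library gave 0 to 1 higher, the 1 being Zfp36l1 without STET_S200 3, 0 lower and 0 among the groups. Without the group STET_S200, Bc1 was called lower, as 1 gene. DESeq2 without each library in turn, added after the data were seen, gave 0 to 20 higher, 0 to 10 lower and 1 to 180 among the groups, with 180 without STET_S100 3. The cause of these changes was not tested.

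Same-numbered libraries did not consistently deviate together. Their correlation was -0.458 to 0.532 over 18 pairs, with a median of 0.072 and 7 pairs over 0.1. Differently numbered pairs had -0.562 to 0.541 over 36 pairs, with a median of -0.015 and 12 pairs over 0.1. Of 12 libraries, 7 correlated best with their own number. These values do not settle whether the numbers mark shared mice, and the main fit did not take them as pairing. With the replicate number as a block edgeR called 0 higher, 0 lower and 0 among the groups, with a smallest adjusted p of 0.207.

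None of the 32 genes whose fold change was refitted under the settings, those chosen by separation from Control, as immediate early genes or by DESeq2, changed direction. For genes chosen by full separation from Control this was largely set by the choice, because leaving out libraries can hardly turn them. Other genes named from the lists were not refitted. Without 1 library, 27 of 45 list medians changed sign. List medians moved by more than their spread in 3 cases, extracellular matrix without Control 2 (0.05), and circadian genes and endothelial markers without Control 3 (-0.05 and 0.07). Without Control 3 DESeq2 made 0 calls in either direction, and the median SE of a log2 fold change was 0.08.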
